A study of Homo sapiens with 6 samples.

Results

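The 8 genes described here start, carry or hold back caspase signalling, and were followed in parental ZR-75-1 cells, a human ER-positive breast cancer line, grown for 4 days with 500 nM abemaciclib, a CDK4/6 inhibitor, or with an equal volume of its solvent DMSO. They were chosen by name, with earlier results of these data known. They are the initiator caspases CASP2, CASP8 and CASP9, death receptors TNFRSF10A, TNFRSF10B and FAS, and inhibitor of apoptosis (IAP) genes XIAP and BIRC2. Each was found by its Ensembl identifier, giving 8 of the 60656 genes in the table. Each group held 3 libraries, which the study describes as independent biological replicates, and both groups shared the line and the medium, so the values describe 1 line at 1 dose and 1 time. The study's isogenic RB1 knockout cells are not analysed here.

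Caspases are proteases made as inactive precursors. Ligands such as TRAIL and FASLG draw death receptors, the adaptor FADD and caspase-8 into a complex at the membrane, whereas cytochrome c released from mitochondria assembles APAF1 and caspase-9 into the apoptosome, and both routes pass the signal to further caspases. IAP proteins act against this cascade: XIAP binds and blocks active caspases, and the protein of BIRC2, cIAP1, is a ubiquitin ligase of the TNF receptor complex. Much of this control lies in cleavage and binding of proteins, which RNA counts do not measure.

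The 6 libraries held 3317860 to 4013156 counts on genes. Levels are in CPM, counts scaled to the size of the library with TMM factors. A count of 0 allows up to 0.740 to 0.909 CPM, counting error alone considered. The 3′ mRNA kit yields a count per transcript end whatever the transcript's length, so levels need no scaling to length between genes, but they do depend on overlap with other genes at the 3′ end. Luminal markers (ESR1, GATA3, FOXA1, KRT8, KRT18 and KRT19) summed to 6539 to 7106 CPM with DMSO and 7423 to 8527 CPM with abemaciclib. They did not move together. In the test described below, ESR1 (log2 fold change 0.825) and KRT19 (0.451) were higher with abemaciclib and KRT18 (−0.345) was lower. GATA3, FOXA1 and KRT8 did not pass its threshold. Of the basal, immune, fibroblast and endothelial markers, 10 of 14 had 0 counts in every library, including KRT5, KRT14, TP63, PTPRC and PECAM1, and COL1A1 held most of the remainder (fibroblast sum, 10.1 to 15.8 CPM over all libraries).

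The filter on low counts left 7 of the 8 genes for the test. With abemaciclib 1 was lower, CASP2, and 0 were higher at an adjusted P under 0.05 (quasi-likelihood test in edgeR, adjusted across 10863 genes; at an unadjusted P under 0.05, and with DESeq2, 0 were higher as well). Of all genes tested, 13.3% were lower and 12.5% higher, so 1 lower gene of 7 (14.3%) was close to the background. The median log2 fold change of the 7 was −0.06, against 0.00 over all genes tested, with 4 below and 3 above 0. In the plot of fold change against level, the 7 genes lay inside the cloud of the other genes, between −0.51 for TNFRSF10B and 0.33 for CASP8.

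Among the initiator caspases, CASP2 was the most abundant and the one that changed. Caspase-2 is activated on the PIDDosome, a scaffold of PIDD1 and CRADD, and is known for responses to supernumerary centrosomes and DNA damage. The gene lies on chromosome 7 of GRCh38 from 143288215 to 143307696 on the plus strand. Its promoter is shown because it was the member that passed the threshold; it is RefSeq's window of 250 bases before to 50 after the start site (GRCh38.p14, plus strand, chr7:143288101-143288400), with capitals marking the CCAAT box, the letters bound by NF-Y, on either strand.
CASP2: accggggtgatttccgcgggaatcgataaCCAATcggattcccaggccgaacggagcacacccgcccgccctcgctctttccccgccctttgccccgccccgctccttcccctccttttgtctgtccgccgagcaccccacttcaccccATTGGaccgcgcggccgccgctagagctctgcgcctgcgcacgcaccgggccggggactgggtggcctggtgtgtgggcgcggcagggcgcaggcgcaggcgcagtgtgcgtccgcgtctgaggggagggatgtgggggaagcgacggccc
The CCAAT matches began at positions −221 and −101 from the start site, the latter on the reverse strand, and 34.6% of the 35116 promoter windows of this length held at least 1. No E2F match (TTTCCCGC, TTTGGCGC, TTTCGCGC or TTTGCCGC, either strand, present in 3.31% of windows) stood in it. The CHR letters, given below for FAS, were absent from it too.

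CASP2 was at 69.0, 73.1 and 81.2 CPM in the DMSO libraries and at 56.6, 58.2 and 47.3 CPM in the abemaciclib libraries. Every abemaciclib library was below every DMSO library, which was also true, in one direction or the other, of 39.1% of all genes tested. CASP2 fell from 74.4 ± 6.18 to 54.0 ± 5.90 CPM (mean ± SD, n = 3 per group), a log2 change of −0.46 with a 95% interval of −0.75 to −0.17 (SE 0.14, edgeR adjusted P = 0.0149). In bulk samples, fewer cells expressing a gene and less RNA per cell cannot be told apart. No other gene covers the last 500 bases of the canonical CASP2 transcript. Its call did not hold when DMSO replicate 3 was left out (−0.40, adjusted P = 0.0758, edgeR) or without abemaciclib replicate 3 (−0.37, adjusted P = 0.0573, edgeR), the DMSO library with the highest and the abemaciclib library with the lowest CASP2 level, and the adjusted P ranged from 0.0131 to 0.0758 over all alternatives. Of the 10862 other genes tested, SGO2, a shugoshin that guards centromeric cohesion, followed CASP2 most closely over the 6 libraries (Pearson r of log2 CPM 0.998, a description over libraries that fall into 2 groups), and was at a mean of 37.9 CPM with DMSO and 27.5 CPM with abemaciclib.

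The PIDDosome partners of CASP2 were scarce. PIDD1, the p53-inducible scaffold, had 10, 11 and 16 counts with DMSO and 6, 3 and 4 with abemaciclib, too few for the test. CRADD, the adaptor that joins it to caspase-2, was at 3.77, 6.83 and 1.51 CPM with DMSO and 4.54, 3.70 and 1.62 CPM with abemaciclib. The groups overlap, and the 95% interval of its log2 fold change (−0.30) ran from −1.44 to 0.83.

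CASP8, the initiator of the receptor route, was at 4.64, 10.7 and 10.9 CPM with DMSO and at 12.7, 6.66 and 13.8 CPM with abemaciclib. These values overlap, with the lowest in DMSO replicate 1. On the log2 scale the difference was 0.33 with a 95% interval of −0.40 to 1.06 (SE 0.36, edgeR adjusted P = 0.554). CASP8 lies on chromosome 2 from 201233443 to 201361836, in a row with its relatives CFLAR and CASP10.

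CASP9, the initiator of the apoptosome, was the scarcest of the 7 genes tested, at 6.09, 2.08 and 5.45 CPM with DMSO and 2.72, 3.21 and 7.03 CPM with abemaciclib. Both groups spanned a similar range, from 46 counts over the DMSO libraries and 48 over the abemaciclib libraries. At this depth the 95% interval of the log2 fold change ran from −1.11 to 0.97, so changes within it are not excluded. CASP9 lies on chromosome 1 from 15490832 to 15526534, and its promoter window, like those of XIAP and BIRC2, held none of the motifs searched.

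Of the 3 death receptors among the 8 genes, TNFRSF10A, which encodes the TRAIL receptor DR4, had the highest level. It was at 55.4, 72.8 and 77.5 CPM with DMSO and at 71.4, 66.1 and 60.0 CPM with abemaciclib, the latter inside the DMSO range. On the log2 scale the difference was −0.06 with a 95% interval of −0.35 to 0.24 (SE 0.14, edgeR adjusted P = 0.815).

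TNFRSF10B, which encodes the other TRAIL death receptor, DR5, and is known as a target of p53 and of the stress factor CHOP, was lower in level. Its values were 13.6, 11.0 and 12.1 CPM with DMSO and 10.3, 5.67 and 10.0 CPM with abemaciclib. Every abemaciclib library lay below every DMSO library, but the nearest were 11.0 and 10.3 CPM. On the log2 scale the difference of −0.51 (SE 0.32, 95% interval −1.16 to 0.14) missed the threshold (edgeR adjusted P = 0.257). Its size was close to that of CASP2, on 124 and 94 counts per group against 752 and 598.

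TNFRSF10A thus made up 80.3%, 86.9% and 86.5% of the counts of the DR4 and DR5 genes together in the DMSO libraries (Wilson 95% intervals from 74.7% to 90.3%). The share was 87.4%, 92.1% and 85.7% with abemaciclib (Wilson 95% intervals from 80.9% to 94.7%), a range that overlaps that of DMSO. Both genes lie on chromosome 8, from 23190452 to 23225102 and from 23020133 to 23069031, and exons of genes on the opposite strand cover 44.8% of the last 500 bases of TNFRSF10A and 75.4% of those of TNFRSF10B. The counting is not stated to use strand, so both are uncertain to that extent.

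FAS, the receptor of FASLG and also known as a p53 target, was near the limit of detection. It had 4, 9 and 10 counts in the DMSO libraries and 2, 0 and 2 in the abemaciclib libraries, corresponding to 1.16, 2.67 and 3.03 CPM against 0.61, 0.00 and 0.54 CPM. All abemaciclib libraries were below all DMSO libraries, and all 3 were under the level that a count of 0 allows. The ratio of summed counts, 4 against 23 and scaled by library size, was 0.159 (exact Poisson 95% interval 0.04 to 0.466, counting error only). FAS was removed by the filter on low counts; in a fit without that filter, chosen after seeing the data, its adjusted P was 0.134 (edgeR, log2 fold change −2.51, standard error 1.12), and so it was not called.

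The promoter of FAS is shown beside that of CASP2 as the member with the lowest level and the largest ratio between groups, although it was not called. FAS lies on chromosome 10 from 88953813 to 89029605, and the window is chr10:88990548-88990847 (GRCh38.p14, plus strand, RefSeq), with capitals marking the cell cycle homology region (CHR) letters TTTGAA or TTCGAA on either strand.
FAS: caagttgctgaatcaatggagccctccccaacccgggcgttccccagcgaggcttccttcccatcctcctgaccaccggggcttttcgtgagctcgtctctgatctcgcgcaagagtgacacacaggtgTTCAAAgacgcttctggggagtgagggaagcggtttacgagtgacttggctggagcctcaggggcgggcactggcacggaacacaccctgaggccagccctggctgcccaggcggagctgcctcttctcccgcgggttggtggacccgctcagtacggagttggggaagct
The match began at position −121 from the start site, on the reverse strand, and was the window's only match to any motif searched. Such letters stood in 16.4% of all windows, and among the 6 members with a window they were also in that of CASP8, at position −49, where the palindrome TTCGAA reads alike on both strands. TNFRSF10A and TNFRSF10B had no window in the table used. A match describes letters and does not show a bound site.

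XIAP was the most abundant of the 8 genes, above 85.8% of all genes tested. It was at 113.4, 89.7 and 105.7 CPM with DMSO and at 110.1, 126.8 and 117.0 CPM with abemaciclib. The means were 103 ± 12.1 and 118 ± 8.39 CPM (SD, n = 3), and DMSO replicate 1 lay above abemaciclib replicate 1. On the log2 scale the difference of 0.20 (SE 0.12, 95% interval −0.05 to 0.44) missed the threshold (edgeR adjusted P = 0.243). XIAP lies on chromosome X from 123859712 to 123913972, and its 3 annotated pseudogenes had 0 counts in every library.

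BIRC2 was at 39.7, 30.9 and 30.0 CPM with DMSO and at 38.1, 28.4 and 40.3 CPM with abemaciclib. The highest and the lowest value both came from the abemaciclib group, which therefore spanned the DMSO group. On the log2 scale the difference was 0.08 with a 95% interval of −0.30 to 0.46 (SE 0.19, edgeR adjusted P = 0.804). BIRC2 lies on chromosome 11 from 102347211 to 102378670, next to its close relative BIRC3.

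By mean level over all libraries, with the opposite-strand overlap of TNFRSF10A and TNFRSF10B in mind, the order was XIAP (110.5 CPM), TNFRSF10A (67.2 CPM), CASP2 (64.2 CPM), BIRC2 (34.6 CPM), TNFRSF10B (10.4 CPM), CASP8 (9.90 CPM), CASP9 (4.43 CPM) and FAS (1.33 CPM). TNFRSF10A and CASP2 overlapped across libraries, as did TNFRSF10B, CASP8 and CASP9, and CASP9 with FAS. XIAP stayed above both TNFRSF10A and CASP2, and BIRC2 below both, in every library of either group.

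The rest of the machinery was read from a list of 50 further genes of the same pathways, also chosen with earlier results known. Of these, 26 could be tested and 12 had 0 counts in all libraries. With abemaciclib 4 were lower (15.4% of those tested, against 13.3% of all genes tested) and 1 was higher (3.85%, against 12.5%). The median log2 fold change was −0.11, against 0.00 over all genes tested, with 17 below and 9 above 0. The groups did not overlap for 9 of the 26, and for 39.1% of all genes tested. In the plot of fold changes, 5 of the 23 list genes shown are coloured as called, and the intervals of 3 genes not called, DFFA, APAF1 and TRAF2, also leave out 0.

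**Figure D1:**
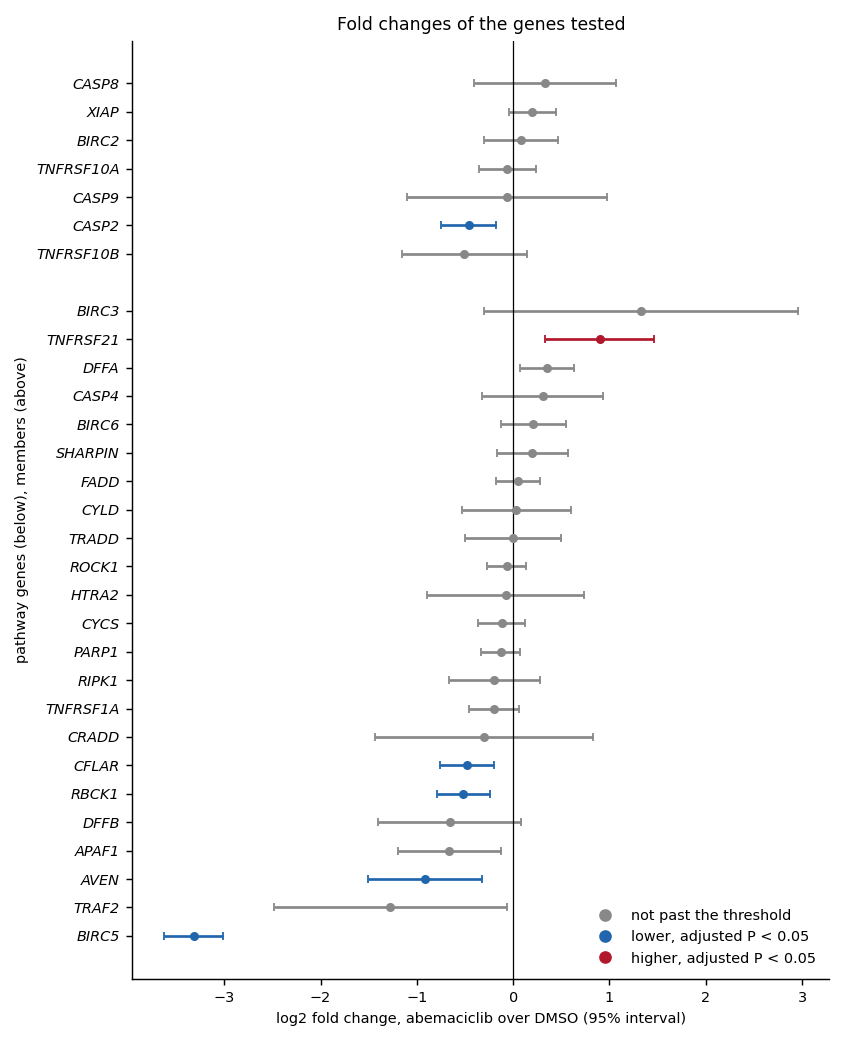
Log2 fold change of abemaciclib over DMSO with its 95% interval for the 7 members tested (above) and 23 of the 26 other pathway genes tested (below), sorted by fold change. Blue marks genes lower and red genes higher at an adjusted P under 0.05: CASP2, CFLAR, RBCK1, AVEN and BIRC5 are lower and TNFRSF21 is higher.

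Within the receptor complex, CFLAR and RBCK1 fell. CFLAR encodes c-FLIP, a relative of caspase-8 without protease activity that limits its activation. It was at 79.8, 83.5 and 78.1 CPM with DMSO and at 50.8, 66.4 and 55.1 CPM with abemaciclib. The groups did not overlap, and on the log2 scale they differed by −0.48 (SE 0.14, edgeR adjusted P = 0.00938), with the call lost without abemaciclib replicate 1 (−0.40, adjusted P = 0.0502, edgeR).

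RBCK1 encodes HOIL-1, a subunit of the linear ubiquitin chain assembly complex that acts at the TNF receptor. It was at 93.4, 76.9 and 82.4 CPM with DMSO and at 61.1, 63.2 and 52.4 CPM with abemaciclib, again without overlap. on the log2 scale they differed by −0.52 (SE 0.14, edgeR adjusted P = 0.00518), and the call held under every alternative run. SHARPIN, another subunit, differed by 0.20 on the log2 scale and was not called (edgeR adjusted P = 0.47).

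Other parts of the receptor complex did not pass the threshold. FADD, the adaptor of caspase-8, had means of 140 ± 18.3 CPM with DMSO and 145 ± 3.85 CPM with abemaciclib (SD, n = 3), a log2 difference of 0.05 with a 95% interval of −0.18 to 0.28. Exons on the opposite strand cover 82.2% of its last 500 bases, so its counts are uncertain in the way of the TRAIL receptors. RIPK1, a kinase of the TNF receptor complex, had a log2 fold change of −0.20. TRAF2, which recruits cIAP1, was at 2.03, 5.35 and 14.2 CPM with DMSO and 0.61, 3.21 and 4.86 CPM with abemaciclib. Its log2 fold change of −1.28 (edgeR adjusted P = 0.116) was −0.32 without DMSO replicate 3, and was called without DMSO replicate 1 (−1.72) or abemaciclib replicate 3 (−1.83).

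**Figure D2:**
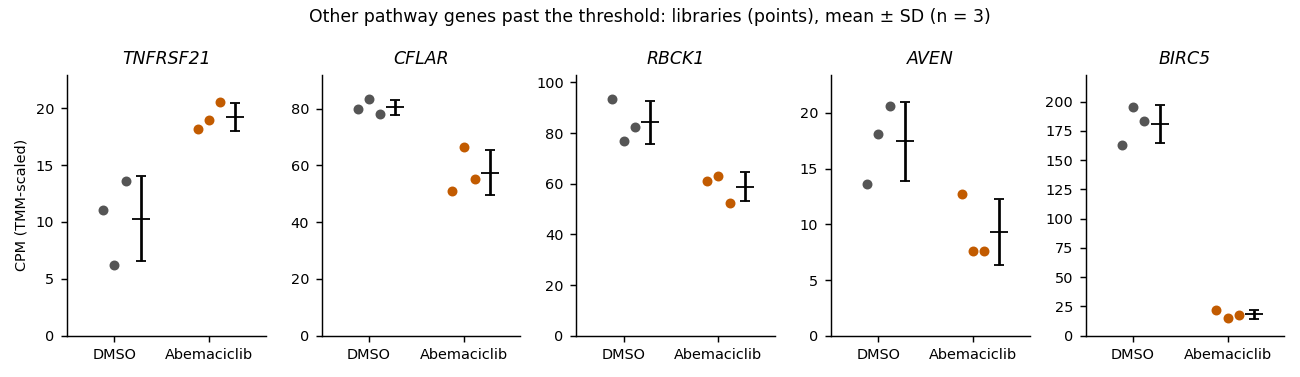
CPM in each library (points; grey, DMSO; orange, abemaciclib), with mean and SD of 3 libraries, for the 5 other pathway genes past the threshold; each vertical axis starts at 0. TNFRSF21 is higher and CFLAR, RBCK1, AVEN and BIRC5 are lower with abemaciclib. The groups do not overlap for any of the 5, which were picked for passing the threshold in these same libraries. They also do not overlap for 39.1% of all genes tested.

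TNFRSF21, which encodes the death receptor DR6, rose. It was at 11.0, 6.24 and 13.6 CPM with DMSO and at 18.2, 19.0 and 20.5 CPM with abemaciclib, a log2 change of 0.90 (SE 0.28, edgeR adjusted P = 0.0159). Its lowest library was DMSO replicate 2, without which the log2 fold change was 0.64 and the call was lost (adjusted P = 0.117, edgeR). TNFRSF1A, the main TNF receptor, was the most abundant death receptor of the list, with means of 86.6 ± 4.00 and 75.4 ± 7.68 CPM (SD, n = 3; log2 fold change −0.20, adjusted P = 0.266, edgeR).

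Ligands and decoy receptors had too few counts for the test. FASLG and TNF had 0 counts in all libraries, and TNFSF10, which encodes TRAIL, had 9 counts over the DMSO libraries and 12 over the abemaciclib libraries. Of the TRAIL decoy receptors, TNFRSF10C had 2, 1 and 8 counts with DMSO and 0 in each abemaciclib library. TNFRSF10D had 22 counts over the DMSO libraries and 38 over the abemaciclib libraries, most of them in DMSO replicate 1 and abemaciclib replicate 2. In all, 9 ligands and decoy receptors were listed, and the filter on low counts left 0 of them.

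CASP4, an inflammatory caspase, was at 10.2, 8.32 and 8.78 CPM with DMSO and at 9.38, 11.6 and 12.7 CPM with abemaciclib. The groups overlap, and the 95% interval of its log2 fold change (0.31) ran from −0.32 to 0.93, while CASP1, CASP5, CASP10 and CASP14 had 0 counts throughout.

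Around the apoptosome, AVEN fell. AVEN encodes a binding partner of APAF1 that hinders its assembly. It was at 13.6, 18.1 and 20.6 CPM with DMSO and at 12.7, 7.65 and 7.57 CPM with abemaciclib, a log2 change of −0.92 (SE 0.29, edgeR adjusted P = 0.0192). This was the least firm of the 5 calls, lost with DESeq2 (adjusted P = 0.059) and without any 1 of DMSO replicates 2 and 3 or abemaciclib replicates 2 and 3 (adjusted P from 0.0517 to 0.0968, edgeR, log2 fold change −0.89 to −0.78). APAF1 stood at −0.67 on the log2 scale (edgeR adjusted P = 0.0603) with no overlap between groups, and was called without abemaciclib replicate 2 (−0.92). Exons of ANKS1B on the opposite strand cover all of its last 500 bases. CYCS, cytochrome c, had means of 138 ± 23.2 CPM with DMSO and 127 ± 5.90 CPM with abemaciclib (SD, n = 3; log2 fold change −0.12).

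Of the other IAP genes, BIRC5 moved and the rest of those tested did not pass the threshold. BIRC5 encodes survivin, which holds a BIR domain like XIAP but is best known as a subunit of the chromosomal passenger complex in mitosis. It fell from 163, 196 and 184 CPM with DMSO to 22.4, 14.8 and 17.6 CPM with abemaciclib, a log2 change of −3.32 (SE 0.15, edgeR adjusted P = 1.99e-16). BIRC6, a very large IAP, had a log2 fold change of 0.21 (95% interval −0.13 to 0.55), and BIRC3 of 1.33 on 13 and 35 counts per group (adjusted P = 0.239, edgeR), which was called without DMSO replicate 1 (3.30). Among the IAP antagonists, only HTRA2 could be tested, with a log2 fold change of −0.08 and a 95% interval of −0.89 to 0.74. Its counts are uncertain too, since exons of LOXL3 on the opposite strand cover 100% of its last 500 bases.

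The list held 4 further genes, the caspase targets PARP1, ROCK1 and DFFA and the nuclease DFFB that DFFA inhibits. PARP1, cleaved in dying cells, had means of 486 ± 28.1 CPM with DMSO and 445 ± 56.0 CPM with abemaciclib (SD, n = 3; log2 fold change −0.13; called without abemaciclib replicate 3, at −0.23), and ROCK1 was at 242 ± 20.1 CPM and 231 ± 6.87 CPM (log2 fold change −0.07). DFFA, the inhibitor of the caspase-activated nuclease, was at 72.7 ± 12.2 CPM and 92.7 ± 8.18 CPM, a log2 fold change of 0.35 that stayed just outside the threshold (adjusted P = 0.056, edgeR) and was called without DMSO replicate 2 (0.47) or abemaciclib replicate 3 (0.41). DFFB, the nuclease itself, stood at −0.66 on the log2 scale (edgeR adjusted P = 0.194). The groups did not overlap for DFFA or DFFB, and neither was called.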

How the data were processed

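The 6 libraries of RNA from parental ZR-75-1 cells, 3 a group, were grouped by title. The authors used BBDuk for trimming of the single-end 3′ mRNA reads, STAR 2.7.5b for alignment (hg38), and counted reads per gene with featureCounts 2.0.1 on GENCODE release 35. The deposited values are these raw counts, unfiltered, and 40227 of 60656 genes had 0 counts throughout. The strand setting of the counting is not given in the sources used here, and the labels and the methods name different versions of the library kit.

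Abemaciclib was compared with DMSO by the quasi-likelihood test of edgeR 4.0.16 under R 4.3.3, after filterByExpr and TMM scaling, with Benjamini-Hochberg adjustment over the 10863 genes tested. The standard error was the log2 fold change divided by the square root of F, and 95% intervals used the t distribution with the fit's degrees of freedom. The test was also run on simulated counts, with changes larger than those of the members tested. That run therefore does not bear on changes as small as theirs. Positions are from GENCODE release 44 on GRCh38.

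The 8 genes and the list of 50 were chosen with earlier results of these data known. List genes were named if past the threshold, if their log2 change reached 0.5 either way, or if they averaged 20 CPM or more, and any others were chosen after their values were seen, including the share of TNFRSF10A and the motifs. Alternatives were DESeq2 1.42.0, its size factors, total counts, other filters, a replicate block and each library left out. Some genes of the list are counted in its totals but not reported here.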

Additional observations from a re-analysis of the deposited data

How the results depend on the processing

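Of 140 values recomputed with another choice, 127 had the sign and call of the report or, for counts, lay within 1.5 times of it. The rest were few: 4 counts moved, 2 values of CASP2 were weaker and 7 small fold changes reversed, and all 13 came from leaving out 1 library. The 140 values are numbers of genes called and fold changes of the members. A number can thus hold while the genes behind it differ, and FAS with DESeq2 was judged on its sign alone. Leaving out each library in turn gave 0 to 1 members lower, 1 to 2 list genes higher and 3 to 5 lower. Across the same fits the log2 fold change was −0.52 to −0.37 for CASP2, −0.60 to 0.20 for CASP9, −0.20 to 0.04 for TNFRSF10A, −0.02 to 0.23 for BIRC2, 0.02 to 0.60 for CASP8, −0.65 to −0.27 for TNFRSF10B and 0.11 to 0.27 for XIAP. TNFRSF10A was at 0.0377 without DMSO replicate 3 and BIRC2 at −0.0191 without abemaciclib replicate 3. List genes called only with a library left out were TRAF2 and BIRC3 (without DMSO replicate 1), DFFA (without DMSO replicate 2), APAF1 (without abemaciclib replicate 2) and TRAF2, DFFA and PARP1 (without abemaciclib replicate 3). Calls were lost for TNFRSF21 (without DMSO replicate 2), CFLAR (without abemaciclib replicate 1) and AVEN (without DMSO replicate 2 or 3 or abemaciclib replicate 2 or 3). The causes were not tested. For FAS, fits without a filter gave −2.96 to −1.92 with each library left out, and DESeq2 gave it no adjusted P. At least 10 counts in every library left CASP9 untested. The same replicate number did not pair libraries (correlation of deviations from the group means −0.04, 0.01 and −0.09 for numbers 1, 2 and 3), and not every library correlated best with its own number. With the replicate block, 1 member was lower and 0 higher, 4 list genes were lower and 1 higher, and CASP2 stood at −0.46 (edgeR adjusted P = 0.0342), so the block changed no call among them. Over all genes it gave 1139 higher and 1280 lower, against 1354 and 1442. DESeq2 called 3 list genes lower, without AVEN. Depth limits CASP9, FAS, PIDD1, TRAF2 and the ligands, whose counts are few.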

Other observations

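Some genes of the list were at or near 0 counts where overlapping genes share their 3′ end. DIABLO, the mitochondrial antagonist of IAP proteins, had 2 counts over the 6 libraries, and RNF31, the catalytic subunit of the linear ubiquitin chain assembly complex, and the decoy receptor TNFRSF6B had 0. For all 3, exons of another gene on the same strand cover 100% of the last 500 bases of the canonical transcript. The same was read over all protein-coding genes, including those at 0 counts. Of the 756 whose last 500 bases are wholly covered on the same strand, 82.4% had 0 counts in every library. The share was 29.8% of the 16392 with no other gene there. Of the 540 wholly covered on the opposite strand only, 16.5% had 0 counts, with a median of 247 counts over the 6 libraries against 76 for genes with no other gene there. What part overlap has in the 0 of any 1 gene was not tested, so these 3 genes are given as listed at or near 0 and not as unexpressed.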
